A study of Mus musculus with 4 samples.

Results

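Mid-distance intergenic Pax7 peaks are the Pax7 binding sites whose summit lay inside no annotated gene of any type, and whose nearest transcription start site (TSS) of any transcript was more than 10 kb and at most 100 kb away. They were chosen by position alone, from genes that GENCODE annotates on the mouse build NCBIM37 (mm9). Of 20579 Pax7 peaks, 4546 met the rule, which is 22.1% (95% Wilson interval 21.5% to 22.7%). Another 11142 peaks had their summit inside a gene, 3031 were intergenic within 10 kb of a TSS, and 1860 were intergenic and more than 100 kb from one, here called gene desert.

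The peaks come from ChIP-seq of iPax7 cells, mouse ES cells that carry a Pax7 transgene under a doxycycline (Dox) inducible promoter. Embryoid bodies received 1 µg/ml Dox from day 3, PDGFRα+FLK1- cells were sorted on day 5 and grown with Dox and basic FGF, and the cells were harvested on day 9 after 6 days of Dox. Pax7 was precipitated in 2 libraries, with 2 input libraries beside them, all from cells given this same treatment, so the list describes cells in which Pax7 came from the transgene and holds no cells without Dox. The authors pooled the libraries and called 1 list, so no peak has a replicate error, and the depth behind a peak cannot be read from the list. All intervals below are 95% intervals that cover counting error only, and neighbouring peaks are not independent.

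Pax7 is a transcription factor with 2 DNA-binding domains, a paired domain and a homeodomain, and it marks the satellite cells from which skeletal muscle regenerates. The paired domain reads a core with the letters GTCACG, while the homeodomain reads ATTA or TAAT and can bind as a pair on facing sites. Distal intergenic sequence is where many enhancers lie, and an enhancer need not act on the gene whose TSS is nearest. The nearest gene is given below as a position only, not as a target.

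The sequence within 50 bp of the summit is shown for the 6 members with the highest fold enrichment, because they are the strongest sites of the group, and for the strongest members at Spry1, Myod1, Dmrt2 and Egfr, genes of muscle progenitors and satellite cells. All are on the plus strand of NCBIM37. Capitals mark the 4 Pax motifs searched (GTCACG, ATTAGTCA, and TAAT followed by ATTA after 2 or 3 bases) and GTCATG, which is 1 base away from the paired core.
27.1-fold peak between Rxra and Col5a1, chr2:27665484-27665584: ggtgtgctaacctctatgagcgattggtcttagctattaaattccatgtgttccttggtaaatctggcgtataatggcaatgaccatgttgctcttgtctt
25.5-fold peak downstream of Btf3, chr13:99062043-99062143: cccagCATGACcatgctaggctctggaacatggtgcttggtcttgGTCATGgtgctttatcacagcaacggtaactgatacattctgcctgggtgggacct
23.4-fold peak upstream of Cdon, chr9:35179972-35180072: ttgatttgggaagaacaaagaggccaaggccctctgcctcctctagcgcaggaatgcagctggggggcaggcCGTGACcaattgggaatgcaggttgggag
22.8-fold peak upstream of Rgma, chr7:80431250-80431350: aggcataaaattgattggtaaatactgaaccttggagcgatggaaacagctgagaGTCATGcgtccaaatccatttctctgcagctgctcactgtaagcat
22.1-fold peak upstream of Chd9, chr8:93265505-93265605: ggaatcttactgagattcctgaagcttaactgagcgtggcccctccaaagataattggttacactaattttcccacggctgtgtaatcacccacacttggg
21.4-fold peak upstream of the pseudogene Gm9795, chr10:56363171-56363271: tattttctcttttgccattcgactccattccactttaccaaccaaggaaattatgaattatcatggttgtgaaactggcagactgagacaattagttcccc
17.3-fold peak downstream of Spry1, chr3:37571702-37571802: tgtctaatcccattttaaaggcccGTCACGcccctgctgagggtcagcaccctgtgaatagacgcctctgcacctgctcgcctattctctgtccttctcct
12.9-fold peak upstream of Myod1, chr7:53569011-53569111: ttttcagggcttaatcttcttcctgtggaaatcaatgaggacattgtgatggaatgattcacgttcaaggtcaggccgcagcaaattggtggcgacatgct
8.31-fold peak upstream of Dmrt2, chr19:25729020-25729120: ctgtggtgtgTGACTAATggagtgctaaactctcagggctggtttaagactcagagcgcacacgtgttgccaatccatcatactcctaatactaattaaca
7.67-fold peak upstream of Egfr, chr11:16618093-16618193: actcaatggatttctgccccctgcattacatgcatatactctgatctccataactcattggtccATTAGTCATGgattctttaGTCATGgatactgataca
The Cdon and Spry1 peaks held the paired core, 24.5 bp to the right and 23.5 bp to the left of the summit, and the Dmrt2 and Egfr peaks held ATTAGTCA. The Btf3, Rgma and Egfr peaks held GTCATG. None of these letters was found in the Col5a1, Chd9, Gm9795 and Myod1 windows.

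Fold enrichment, which is the peak caller's ratio of pooled ChIP over local background at the summit, had a median of 5.28 over the 4546 members, with quartiles of 4.36 and 6.85 and a range from 2.44 to 27.1. The median was 5.18 for peaks inside genes, 5.07 for gene-proximal intergenic peaks and 5.28 for gene desert peaks. At 10-fold or more there were 360 members, or 7.92% (7.17% to 8.74%), against 6.99% of all Pax7 peaks. The share exceeded that of peaks inside genes by 1.24 percentage points (Newcombe interval 0.352 to 2.18). When the upper limit was set at 50 kb the difference was 0.840 (-0.167 to 1.93), and with protein-coding genes alone it was 0.643 (-0.262 to 1.60), so under these settings the interval included 0. Against gene-proximal peaks the difference was 1.12 (-0.0891 to 2.299), and against gene desert peaks it was 0.984 (-0.470 to 2.33). At 5-fold or more the members had 57.3% and all Pax7 peaks 54.9%, and the members' share was 4.55 points above gene-proximal peaks (2.26 to 6.83) and differed from gene desert peaks by -0.385 points (-3.04 to 2.29). The median width was 255 bp with a range from 174 to 1331 bp, and 200 members (4.40%) were 500 bp wide or more.

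The 10 members with the highest fold enrichment reached from 20.1 to 27.1. The strongest, chr2:27665334-27665799, ranked 3 of all Pax7 peaks at 27.1-fold. It lay 69.8 kb downstream of a TSS of Rxra, a retinoid receptor that pairs with other nuclear receptors, and 76.4 kb upstream of Col5a1, a collagen V chain of the satellite cell niche. The next, chr13:99061892-99062330, had 25.5-fold enrichment and the highest −log10 q of the members, 180. Its summit was 19.4 kb downstream of a TSS of Btf3, a general transcription factor, and another Pax7 summit was 0.904 kb away.

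The third, chr9:35179815-35180253, reached 23.4-fold and lay 48.7 kb upstream of Cdon, a cell surface co-receptor that promotes myogenic differentiation. It was the top of a run of 4 members within 14.5 kb, of which the lowest had 4.63-fold enrichment and 2 held a Pax motif. The fourth, chr7:80431073-80431475, had 22.8-fold enrichment 89.1 kb upstream of Rgma, a BMP co-receptor and guidance cue. Of the remaining 6, 4 lay nearest to TSSs of Chd9 (22.1-fold), the pseudogene Gm9795 (21.4-fold), Gm4862 (21.1-fold) and Rassf3 (20.2-fold). Among these 10, 1 held the paired core, 1 held ATTAGTCA, and 3 held the muscle E-box CAGCTG. Over all members with sequenced windows the shares were 8.58%, 3.43% and 16.2%.

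The density of peaks was nearly flat over the whole distance range. Members had 5.98 peaks per Mb of sequenced intergenic DNA in the same range (exact Poisson interval 5.81 to 6.16), a range that made up 29.7% of the genome. From 10 to 20 kb of a TSS the density was 5.89 per Mb (5.55 to 6.25), from 30 to 50 kb it was 6.19 (5.83 to 6.56), and from 75 to 100 kb it was 5.70 (5.25 to 6.17). These intervals overlapped. Nearer to a TSS, intergenic sequence held 47.5 peaks per Mb within 1 kb (45.0 to 50.0), but 6.10 from 2 to 5 kb (5.60 to 6.62) and 6.38 from 5 to 10 kb (5.95 to 6.83). Beyond the upper limit the density was 4.96 from 100 to 200 kb (4.67 to 5.25), 3.45 from 200 to 500 kb (3.19 to 3.73) and 1.43 beyond 500 kb (1.09 to 1.85). The interval of the mid-distance class overlapped those from 2 to 5 kb and from 5 to 10 kb, and lay below the 10.6 per Mb inside genes (10.4 to 10.8) and above the 4.03 per Mb of gene deserts (3.85 to 4.22).

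**Figure D1:**
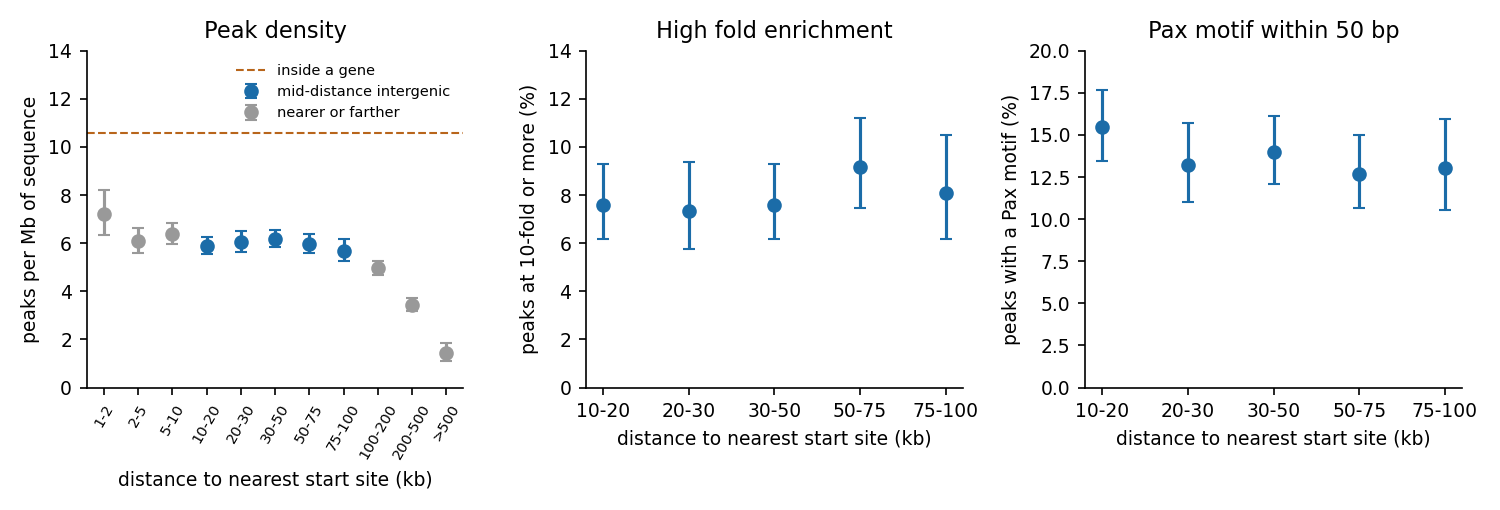
Peaks per Mb of sequence by distance of the summit to the nearest TSS (left, with 95% exact Poisson intervals; intergenic peaks within 1 kb, at 47.5 per Mb, are not drawn), share of members at 10-fold or more (middle) and share holding any of 4 Pax motifs in the summit window (right), both with 95% Wilson intervals. Density stayed between 5.70 and 6.19 per Mb across the 5 mid-distance bins, and the middle and right panels show no bin whose interval is clear of the others.

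Distance was also nearly unrelated to strength. The share at 10-fold or more was 7.57% from 10 to 20 kb (6.16% to 9.28%) and 8.07% from 75 to 100 kb (6.16% to 10.5%), and its highest value was 9.16% from 50 to 75 kb (7.45% to 11.2%). Spearman's rho between fold enrichment and distance was 0.0334 across the 4546 members, which share their libraries. The median distance to the nearest TSS was 35.5 kb, and to the nearest protein-coding TSS 53.6 kb. At the lower limit, the 3 members just inside were 10008, 10010 and 10011 bp from a TSS with fold enrichments of 4.53, 3.60 and 4.05, and the 3 peaks just outside were at 9982, 9981 and 9974 bp with 4.34, 4.13 and 4.99. At the upper limit, the members at 99934, 99906 and 99819 bp had 7.70, 3.36 and 4.54, and the peaks at 100017, 100031 and 100084 bp had 12.6, 5.76 and 5.76.

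Members lay upstream of their nearest TSS in 57.2% of cases (55.7% to 58.6%), and 56.4% of the eligible sequence was itself upstream. Per Mb, there were 6.07 members upstream (5.84 to 6.31) and 5.87 downstream (5.61 to 6.14), with overlapping intervals. Between convergent genes the density was 6.57 per Mb (6.21 to 6.95), and its interval did not overlap those between divergent genes (5.79, 5.44 to 6.16) and between genes in tandem (5.81, 5.57 to 6.05). The nearest TSS belonged to a protein-coding gene for 58.6% of members, to a pseudogene for 9.55% and to a lincRNA for 3.94%.

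On the X chromosome the members were sparse. There were 66 members on X, or 0.914 per Mb of eligible sequence (0.707 to 1.16), and 4480 on the autosomes, or 6.52 per Mb (6.33 to 6.72), a ratio of 7.14. Over all Pax7 peaks the ratio was 5.67, with 1.499 per Mb on X (1.32 to 1.70) and 8.50 on autosomes (8.38 to 8.61). The autosomes ranged from 4.92 per Mb on chromosome 4 (4.31 to 5.59) to 8.23 on chromosome 19 (6.85 to 9.81). The median fold enrichment of the X members was 5.23, beside 5.28 for all members. The peak list held no peak on chromosome Y.

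Pax motifs were concentrated at the summits. The paired core was present within 50 bp of the summit in 390 of 4544 members with sequenced windows, or 8.58% (7.80% to 9.43%), and in 1.08% of the windows of equal width centred 500 bp to the right (adjusted p = 2.5e-68, McNemar's exact test). Among all Pax7 peaks 11.1% held it. ATTAGTCA, in which a homeodomain site runs into the start of a paired site, was present in 3.43% at the summit and 0.462% in the flank (adjusted p = 1.4e-26, exact test). TAAT and ATTA separated by 2 bases occurred in 1.10% against 0.352% (adjusted p = 5.0e-05), and separated by 3 bases in 1.25% against 0.308% (adjusted p = 4.6e-07, both exact tests). These tests were two-sided and paired within members, with Benjamini-Hochberg adjustment over 12 motifs, and both strands were searched. Here and below, their p-values take the peaks of the pooled list as units. They cover sampling of peaks and not of experiments, and neighbouring peaks are not independent. ATTAGTCA overlaps the core by 4 letters when GTCACG follows on it, and its ATTA can be part of a pair.

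Any of the 4 Pax motifs was found in 628 members, or 13.8% (12.8% to 14.9%), against 2.20% in the flank and beside 15.4% of all Pax7 peaks. The remaining 3916 members, 86.2%, held none of these letters in this window. More than 1 kind of Pax motif was present in 25 members, and 20 held the paired core at least 2 times. Among all Pax7 peaks ATTAGTCA was present in 2.94%, and the pairs 2 and 3 bases apart in 0.831% and 0.992%.

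Paired cores sat close to the summit. Where present, the nearest core was a median of 17.5 bp away (quartiles 7.5 and 29.2 bp). In bins of 20 bp, 29.5 core sites per 1000 members lay at the summit, 5.28 at a distance of 100 bp and 2.101 from 300 to 500 bp. The muscle E-box CAGCTG, which MyoD family factors read, had a wider profile, with 33.7 sites per 1000 members at the summit, 25.0 at 100 bp and 10.0 from 300 bp.

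**Figure D2:**
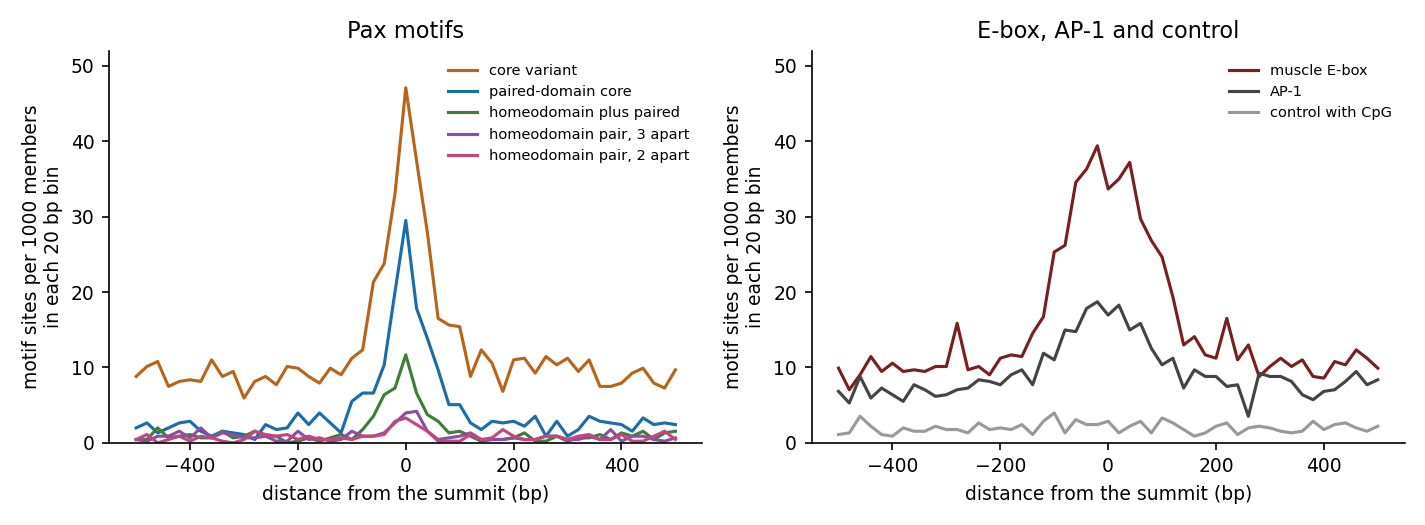
Motif sites per 1000 members in bins of 20 bp, by distance from the peak summit, for the Pax motifs (left; homeodomain plus paired is ATTAGTCA and the core variant is GTCATG) and for the muscle E-box, AP-1 and a control with a CpG (right), over 4544 members. The paired core and ATTAGTCA form a narrow peak at the summit, whereas the E-box forms a broad one and the control has 2.86 sites at the summit.

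Motifs of other muscle and progenitor factors were also more frequent at the summit. The E-box was present in 736 members, or 16.2%, against 4.75% in the flank (adjusted p = 3.1e-71), the Tead motif GGAATG in 12.1% against 5.55% (adjusted p = 2.4e-28), the AP-1 motif TGANTCA in 8.01% against 3.87% (adjusted p = 2.3e-16), and the Runx motif TGTGGT in 10.7% against 6.62% (adjusted p = 3.2e-11; all McNemar's exact test). For TCAGGTT, the letters of the MEF3 site of muscle promoters, the shares were 1.34% and 1.76% (adjusted p = 0.15), and for AGGTGGC, part of the CTCF core, 1.25% and 1.47% (adjusted p = 0.42), by the same exact test. Among all Pax7 peaks the E-box was present in 15.7%, Tead in 10.96%, AP-1 in 6.82%, Runx in 9.73%, MEF3 in 1.33% and the CTCF letters in 1.405%. The control with a CpG, GACTCG, was present in 1.06% and 0.814% (adjusted p = 0.30, exact test). The control without a CpG, GCACTG, was present in 6.23% and 5.06% (adjusted p = 0.024, exact test), and in 5.81% of the left flank. All Pax7 peaks held these controls in 1.51% and 6.85%. Thus 1 of the 2 controls also passed the threshold, with a difference of 1.17 percentage points. The homeodomain pairs differed by less than that in points, 0.748 and 0.946, but their summit shares were 3.13 and 4.07 times the flank, beside 1.23 times for this control.

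Members differed most from gene-proximal intergenic peaks in their motifs. Of the 3031 gene-proximal peaks, 1407 lay within 1 kb of a TSS, and their part in the differences was not tested. The paired core was 3.25 percentage points less frequent than in peaks inside genes (Newcombe interval -4.24 to -2.22) and 6.30 points less frequent than in gene-proximal intergenic peaks (-7.83 to -4.81), and the difference from gene desert peaks was 1.43 points (-0.0552 to 2.81). ATTAGTCA, which has no CpG, was 1.42 points more frequent than in gene-proximal peaks (0.672 to 2.14), and its difference from peaks inside genes was 0.417 points (-0.177 to 1.06). The core holds a CpG, and CpGs per summit window averaged 1.73 in members, 2.43 inside genes, 4.13 in gene-proximal and 1.34 in gene desert peaks, while the control with a CpG was also 1.15 points less frequent in members than in gene-proximal peaks (interval of the difference -1.797 to -0.577). The part of CpG content in these differences was not tested. The E-box was 3.82 points (2.22 to 5.39), Tead 2.74 (1.32 to 4.14), Runx 3.62 (2.33 to 4.89) and AP-1 2.23 points (1.07 to 3.37) more frequent in members than in gene-proximal peaks. Against peaks inside genes, the difference was 1.38 points for Tead (0.294 to 2.52) and 1.46 for AP-1 (0.566 to 2.40), while the intervals for the E-box (-1.40 to 1.14) and Runx (-0.302 to 1.81) included 0. Both controls also differed from peaks inside genes, in the other direction. The difference was -1.11 points without a CpG (-1.95 to -0.238) and -0.479 with a CpG (-0.835 to -0.0768). Against gene desert peaks the intervals of all 4 included 0, with differences of 0.167 for the E-box, 0.421 for Tead, -0.107 for Runx and 0.749 for AP-1. Median GC content of the window was 44.6% in members, 46.5% inside genes and 50.5% in gene-proximal peaks, and CpGs averaged 1.00 in the members' own flanks.

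Stronger members held the paired core and ATTAGTCA more often. From the lowest to the highest quartile of fold enrichment, 1136 members each, the paired core was present in 72 members of the lowest and 125 of the highest quartile, with shares of 8.01% and 8.98% between them, a difference of 4.67 percentage points between the outer quartiles (2.36 to 6.998). ATTAGTCA was present in 2.29%, 2.90%, 3.52% and 5.02% (difference 2.73, 1.19 to 4.33). For the E-box the shares were 13.5%, 17.0%, 17.2% and 17.2% (difference 3.70, 0.734 to 6.66), and for Tead and AP-1 the intervals of the difference included 0 (-3.45 to 2.04 and -3.08 to 1.32). For the pairs of TAAT and ATTA the intervals also included 0, with 0.176 points for those 2 bases apart (-0.649 to 1.02) and 0.264 for those 3 bases apart (-0.734 to 1.28). At 10-fold or more there were 5 of the 50 members with the former and 2 of the 57 with the latter, beside 7.92% of all members. The median fold enrichment was 5.62 in members with any Pax motif and 5.23 in those without, and 10.7% against 7.48% of them reached 10-fold.

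**Figure D3:**
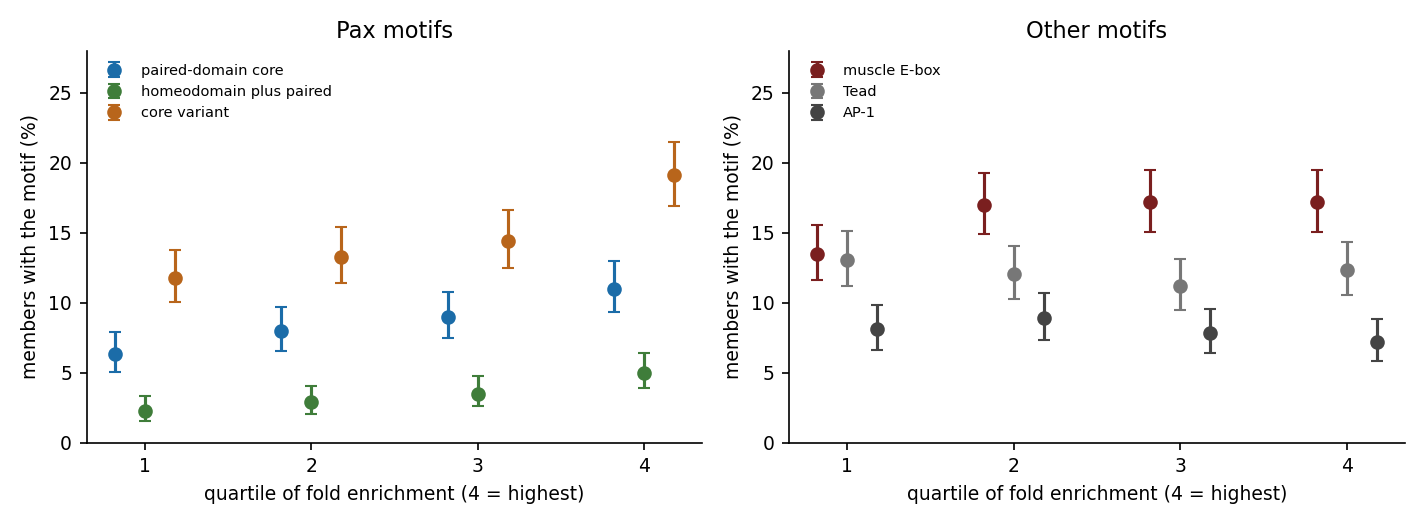
Share of members with each motif within 50 bp of the summit, by quartile of fold enrichment (1136 members each; homeodomain plus paired is ATTAGTCA and the core variant is GTCATG), with 95% Wilson intervals. The paired core, ATTAGTCA and GTCATG become more frequent toward the highest quartile, from 72 to 125 members for the core, while Tead and AP-1 stay level.

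Members were spread over many intergenic stretches. Of 14954 intervals between neighbouring genes that held eligible sequence, 2713 had at least 1 member, 1021 had 2 or more and 85 had 5 or more. The 85 held 507 members, or 11.2% of all, and 1692 members were alone in their interval. The interval between Arf6, a small GTPase, and the miRNA gene AC153658.1 on chromosome 12 held 10 members in 169 kb of eligible sequence, of which the highest, chr12:70602755-70603081, reached 10.4-fold. The interval between Bdh1 and Dlg1 on chromosome 16 also held 10, with 9.997-fold at most (chr16:31509134-31509390). The interval between Slc38a4 and Amigo2 on chromosome 15 held 9, up to 13.7-fold in a peak with the paired core (chr15:97012963-97013304). The next 2 intervals, on chromosomes 3 and 14, held 9 each, up to 12.6-fold and 9.53-fold.

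By the nearest protein-coding TSS, 2567 of 22225 genes (11.6%) had at least 1 member, and 1006 had 2 or more. The 5 genes with most members were 5930403N24Rik and Actbl2 with 11 each, and Phlda1, 5330426P16Rik and Setd4 with 10 each. Phlda1 had its 10 members in 158 kb of eligible sequence, where 5330426P16Rik had 379 kb. The highest member at Phlda1, chr10:111095966-111096308, had 12.9-fold enrichment 153 kb from its TSS. The highest members nearest to the other 4 genes had from 6.14-fold to 10.0-fold enrichment, from 36.8 to 337 kb away.

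The median distance from a member to the nearest Pax7 peak of any class was 22.4 kb, and 31.4% of members had another peak within 10 kb. For peaks inside genes these values were 17.4 kb and 38.0%, and for gene desert peaks 28.9 kb and 27.96%. The nearest peak was itself a member for 61.4%. In 127 runs, 3 or more members followed each other with gaps of at most 10 kb, and these runs held 409 members, or 8.997%. The run with most members had 6 over 20.6 kb upstream of Lekr1 on chromosome 3, with fold enrichments from 4.71 to 6.17, and 3 of the 6 held a Pax motif. A run of 5 members over 10.6 kb lay 47.7 kb upstream of Stc1, with its highest peak at 13.1-fold and a median of 4.11-fold.

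Among the myogenic regulators, 15 of 41 genes were the nearest protein-coding TSS of a member, beside 11.6% of all protein-coding genes. These genes lie in longer intergenic sequence, with a median of 57.0 kb eligible per gene against 4.57 kb over all genes. The limit of 100 kb is to any transcript, so the nearest protein-coding TSS can be farther away, and its distance is given with each gene. Per Mb of eligible sequence the list held 9.30 members (6.44 to 13.0), beside 5.98 over all genes, with a median fold enrichment of 5.04. Myod1, which commits cells to the myogenic lineage, had 6 members in 55.0 kb, the most of the list. Eya1 and Eya2, transcriptional coactivators, had 4 and 3 members, up to 5.23- and 5.90-fold at 63.4 and 54.2 kb. Six2 had 1, of 5.04-fold at 72.5 kb. Tcf4, an E protein gene, and Dach1 had 3 and 2, up to 7.26- and 5.93-fold at 111 and 424 kb. Mef2c, a partner of the MyoD family, had 1 member of 6.21-fold 19.1 kb upstream, Tead1, whose product reads the Tead motif, had 1 of 6.17-fold at 158 kb, and Runx1 had 1 of 4.19-fold at 64.6 kb whose window held the Runx motif.

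All 6 members at Myod1 lay upstream, in order of distance at 23.1, 27.5, 36.4, 38.6, 62.1 and 62.8 kb from its TSS. Their fold enrichments, in the same order, were 5.99, 5.04, 3.70, 9.49, 3.74 and 12.9, so that the weak peaks at 36.4 and 62.1 kb stood 2.24 and 0.708 kb from a strong one. The member at 23.1 kb (chr7:53608576-53608893) held the paired core, the E-box and AP-1 within 50 bp of its summit, whereas the strongest held Tead and AP-1 and no Pax motif. At Dmrt2, a factor of the somite dermomyotome, the member 17.8 kb upstream (chr19:25728867-25729242) had 8.31-fold enrichment and held ATTAGTCA and the Runx motif. A further member 64.6 kb downstream had 6.63-fold enrichment with an E-box, and 1 nearest to Dmrt3, 38.8 kb upstream of Dmrt2, had 2.88-fold and also held ATTAGTCA. Myh3, the embryonic myosin heavy chain, had 1 member of 4.11-fold 27.6 kb downstream. Myf5, the other early myogenic determination factor, had none within 100 kb, where 6 Pax7 peaks were inside genes or gene-proximal.

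**Figure D4:**
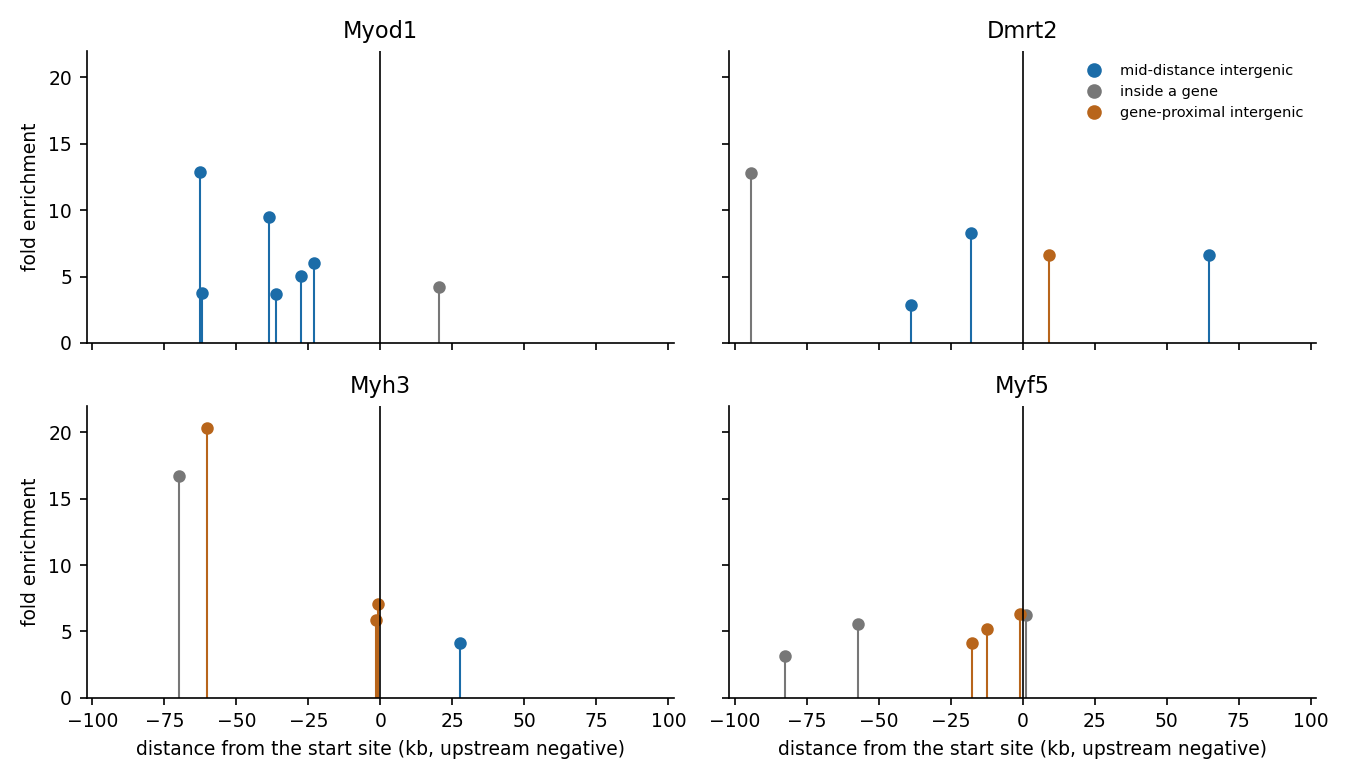
Fold enrichment of every Pax7 peak within 100 kb of the TSS of 4 muscle genes, by distance from that TSS (upstream negative) and by class. At Myod1, 6 of 7 peaks were mid-distance intergenic and upstream, up to 12.9-fold, and at Myf5 none was.

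Of 24 genes of the satellite cell surface and niche, 12 were nearest to a member, beside 11.6% of all protein-coding genes. Among genes with any eligible sequence the share was 60%, beside 18.9% over all. Median eligible sequence per gene was 58.4 kb, against 4.57 kb over all genes. The density of this list was 9.34 per Mb (5.70 to 14.4) for 20 members. At 10-fold or more there were 4 of these 20, beside 360 of all 4546 members (7.92%). The counts were 2 of 10 in the sarcomere and contraction list, 2 of 11 for pluripotency, 6 of 46 for ribosomal proteins and 2 of 23 for extracellular matrix. They were 2 of 34 in the myogenic list, 2 of 39 for axon guidance and 1 of 26 for TGF-beta and BMP. None of the 15 members in the Notch list and the 19 in the Wnt list reached 10-fold. The lists were not tested against each other. Col5a1 and Col5a2, which encode collagen V, had 3 members each, up to 27.1- and 11.3-fold at 76.4 and 123 kb. Spry1, an inhibitor of receptor tyrosine kinase signalling that satellite cells need to return to quiescence, had 2 members, and the stronger, 32.8 kb downstream (chr3:37571516-37571925), reached 17.3-fold with the paired core. Hgf, the ligand of the Met receptor, had 1 of 10.3-fold 83.0 kb upstream (chr5:15976219-15976605), and Met had 2, up to 7.24-fold 60.5 kb upstream (chr6:17353003-17353426). The highest member nearest to the cadherin gene Cdh2 had 8.42-fold enrichment 386 kb away, and that nearest to the growth factor receptor Egfr had 7.67-fold 34.1 kb away. For the adhesion gene Vcam1 and the chemokine receptor Cxcr4 the values were 5.90-fold at 61.2 kb and 5.76-fold at 122 kb. For Fgfr1, Ncam1 and Itgb1 they were 5.24-, 4.90- and 3.63-fold at 122, 15.4 and 63.8 kb.

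In the signalling lists, 8 of 25 Notch pathway genes, 18 of 35 TGF-beta and BMP genes and 10 of 44 Wnt genes were nearest to a member. Over all protein-coding genes the share was 11.6%. Among genes with any eligible sequence the shares were 40%, 60% and 27.0%, beside 18.9% over all. Median eligible sequence per gene was 14.4, 66.8 and 37.2 kb, against 4.57 kb over all genes. The densities of these lists, in the same order, were 10.9 (6.09 to 17.9), 8.06 (5.26 to 11.8) and 7.20 members per Mb (4.34 to 11.2). Rbpj, the DNA-binding effector of Notch, had 6 members up to 8.96-fold at 36.4 kb, and Notch1 had 1 of 9.70-fold 15.4 kb upstream. The BMP ligand gene Bmp4 had 1 member of 18.5-fold 116 kb upstream (chr14:47126336-47126685), and Bmp2 had 5, up to 8.85-fold at 115 kb. Smad1, which carries BMP signals to the nucleus, had 1 of 9.41-fold at 76.7 kb. No member of the Notch list (15 members) or of the Wnt list (19 members) reached 10-fold, beside 7.92% of all members that did. Both lists have few members, and their difference from that share was not tested. The highest of the Wnt list, of 7.79-fold, was nearest to Lef1 at 182 kb.

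Sarcomere and contraction genes had the highest density, 25.2 per Mb (12.1 to 46.3), but this rested on 10 members in 0.397 Mb. Only 16 of the 34 genes had any eligible sequence, and 6 had a member. That is 37.5% of the 16, beside 18.9% of all protein-coding genes with eligible sequence. Tpm1, a tropomyosin, had 2, up to 16.9-fold 22.3 kb upstream (chr9:66919333-66919761), Casq2, a calcium store protein, had 1 of 11.9-fold at 37.1 kb, and Myl1, a myosin light chain, had 3 up to 8.82-fold at 40.1 kb. Extracellular matrix genes had 9.47 per Mb (6.00 to 14.2), and the highest members nearest to the laminin genes Lama2 and Lama4 had 15.5- and 14.3-fold at 224 and 396 kb. Axon guidance genes had 6.88 (4.89 to 9.40), with most members, 9, nearest to Efna5 (up to 11.5-fold, 168 kb away) and the highest, 11.9-fold, nearest to Epha7 but 1026 kb from its TSS. For the contrast lists, pluripotency genes had 5.80 (2.89 to 10.4), with a member of 12.8-fold 289 kb from Tbx3, and the ribosomal protein list, 53 of whose 148 symbols are pseudogene copies and 10 are S6 kinases, had 6.58 per Mb (4.82 to 8.78). Of its 46 members, 36 were nearest to the pseudogene copies and 3 to the kinase genes, so most of this density comes from the copies.

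**Figure D5:**
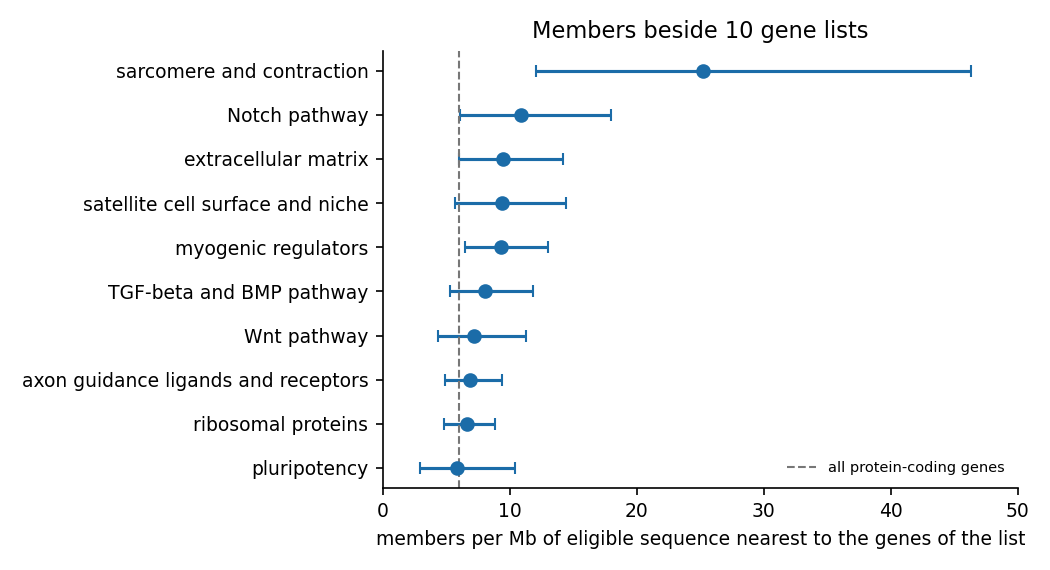
Members per Mb of eligible sequence whose nearest protein-coding TSS belongs to each of 10 gene lists, with 95% exact Poisson intervals; the dashed line is the value over all protein-coding genes, 5.98. The lower bound lies above the line for sarcomere and contraction, Notch pathway, extracellular matrix and myogenic regulators, and the other intervals cross it. Rbpj alone had 6 of the 15 Notch members, and Myod1 had 6 of the 34 myogenic members. The intervals take members as independent, which neighbouring peaks are not.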

How the data were processed

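Pax7 ChIP-seq was carried out on Dox-treated iPax7 cells, with 2 ChIP and 2 input libraries. After bowtie2 alignment to mm9 and removal of duplicates by Picard, the authors pooled the libraries and ran MACS2, and the deposited list is that 1 call. Per peak the authors gave a fold enrichment, which is a ratio of ChIP over local background, the −log10 q, a score that is 10 times this value without its decimals, and the summit offset. The −log10 p was not used. The lowest −log10 q in the list was 2.07. No column belonged to a single sample.

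Summits were placed on the GENCODE vM1 annotation of NCBIM37 (37273 genes, 95458 transcripts). Density was peaks over sequenced bases (not N) of the same kind. Motifs were searched as exact letters on both strands within 50 bp of the summit and 500 bp to either side, leaving out 2 members whose windows held N. McNemar's exact test compared summit and right flank. Shares have Wilson, their differences Newcombe and densities exact Poisson intervals. Differences between classes and gene lists have no test, since peaks of 1 pooled list are not replicates. GTCATG was chosen after its share had been seen. Procedures were tested on simulated data. Tools were scipy 1.17.1, pandas 2.3.3, numpy 2.4.6, samtools 1.23.1 and pysam 0.24.0 under Python 3.11.15.

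Named members were the 10 highest in fold enrichment, the highest for each listed myogenic and satellite cell gene (up to 12 per list) and up to 3 for the other lists, the 5 genes and 5 intervals with most members, those within 100 kb of Myod1, Myf5, Dmrt2 and Myh3, and the 3 peaks on either side of each limit. The highest runs of members and the counts per gene in a list were added after their values were seen. Some members that this rule names are not reported here. The members and the 10 gene lists were chosen with earlier results of these data known.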

Additional observations from a re-analysis of the deposited data

How the results depend on the processing

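Over 7 results and 47 alternatives, 40 values stayed within the interval of the reported value, within 1.5 times the reported count or on the same side of the test, none changed direction, and 7 moved. A fold enrichment of at least 5 left 2605 members. A −log10 q of at least 5 gave a median fold enrichment of 5.41 and 5.58 members per Mb. Density was 5.74 per Mb with an upper limit of 200 kb, 6.76 with protein-coding genes and transcripts alone and 5.79 with peaks within 500 bp merged. With protein-coding genes alone the share of members upstream was 63.5%, but the share of eligible sequence upstream was not measured under this setting. The paired core at the summit minus the flank ranged from 4.71 percentage points within 25 bp to 9.44 within 100 bp, and passed the test in all 7 alternatives, as did the homeodomain pair 2 bases apart. No paired analysis was possible because the replicates were pooled before peaks were called, and for the same reason leaving out a replicate was not possible. Depth per peak was not in the list, so weak peaks near the threshold have no error of their own. The genome copy carries no repeat marks, and uniqueness of the sequence in each class was not measured, so the densities are per sequenced base and not per mappable base.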

Other observations

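A listing of all 6-letter words within 50 bp of the summit, which was not among the 12 motifs and has no test, gave 1441 words found in at least 100 members. Their median ratio of summit to flank share was 0.974. The paired core ranked first at 8.67 times the flanks, followed by GCGTGA (7.12) and CCGTGA (6.45), which share 5 letters with CGTGAC, the core on the other strand, and CGATTA (4.68) ranked 6. CATGAC, which is GTCATG read on the other strand, ranked 16 by ratio at 3.51, and with 666 members, or 14.7% (13.7% to 15.7%), it was found more often than the paired core. In the flanks its share was 4.01% on the right and 4.36% on the left. Only 34 members held both GTCACG and GTCATG, and 1022, or 22.5% (21.3% to 23.7%), held at least 1 of them, against 5.04% in the right flank.

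GTCATG has no CpG, and unlike the paired core it was least frequent in gene-proximal peaks. Its share was 13.8% inside genes (13.1% to 14.4%), 10.8% in gene-proximal (9.77% to 11.98%), 14.7% in mid-distance and 15.7% in gene desert peaks (14.1% to 17.4%). With either form counted, members had 22.5%, peaks inside genes 24.7% (23.9% to 25.5%), gene-proximal peaks 24.7% (23.2% to 26.3%) and gene desert peaks 22.1% (20.3% to 24.1%), a narrower range than for the paired core alone. In members GTCATG was present in 11.8%, 13.3%, 14.4% and 19.1% from the lowest to the highest quartile of fold enrichment. At 10-fold or more, 123 of 360 members (34.2%, 29.5% to 39.2%) held GTCATG or a Pax motif. The share was 25.8% in members under 10-fold (24.5% to 27.2%), 26.5% in all members and 27.3% in all Pax7 peaks. In the right flank of the members it was 6.10%. Thus the share was higher at 10-fold or more, yet most of these members held neither GTCATG nor any of the 4 Pax motifs at the summit.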
